A study of Mus musculus with 18 samples.

Results

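Transcripts of pseudogenes were measured in nuclei and in cytoplasm of mouse myofibers, the long cells with many nuclei that make up skeletal muscle. A probe was included when its description on the array held the word pseudogene and did not name a lincRNA. This gave 173 probes with 148 gene names, of 55681 probes with 35527 gene names, and the rule uses no measured value. RNA came from wild-type CD1 female mice aged 3 months that received no treatment. The muscles taken were tibialis anterior (TA), soleus and extensor digitorum longus (EDL). They were digested with collagenase, and intact fibers were picked by hand. Each pool of 5 to 10 fibers was opened with Triton X-100 and spun at low speed, so that "nuclei" is the pellet and "cytoplasm" everything left in the supernatant, mitochondria included. The 6 groups were EDL cytoplasm, EDL nuclei, soleus cytoplasm, soleus nuclei, TA cytoplasm and TA nuclei, with 3 single-colour arrays each, 18 in all. The study asked in which fraction long non-coding RNAs lie, and pseudogene transcripts are part of that class.

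A pseudogene is a copy or a remnant of a gene that no longer makes the working protein of its parent. Processed pseudogenes are messenger RNAs that were copied back into DNA and inserted elsewhere without introns, while duplicated pseudogenes keep the exon structure of the parent and often lie in the cluster they arose from. Large families of chemosensory receptors, defensins and testis proteins hold many copies of the latter kind. Some pseudogenes are transcribed, and a probe for one can also bind the transcript of its parent or of another copy where the sequences are alike. A symbol ending in -ps marks a locus that was named as a pseudogene when the array was designed, and some of these names have since changed. The RefSeq table now lists 84 of the 173 probes under a transcribed pseudogene, 14 under a pseudogene, 51 under a protein coding gene, 2 under a lncRNA and 1 under another RNA, and 21 did not match.

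Signal was well above background on 58.6% to 71.2% of the spots of an array, and every value below is a log2 intensity after quantile normalization unless another scale is named. Markers of muscle fibers were well above background in every group, and 8 of 9 were called higher in nuclei and 0 lower, although 4 were higher and 2 lower with the 75th percentile. All 5 RNAs known to stay in the nucleus were higher in nuclei under each scaling. Other cell types were also present: 6 of 6 endothelial, 5 of 6 Schwann cell and 4 of 5 fibroblast markers were higher in nuclei, and 4 of 5 macrophage markers lower, 2 of 5 without scaling. The summed macrophage signal was 2980 to 7070 in cytoplasm and 2490 to 2940 in nuclei, and the summed endothelial signal 1240 to 4780 and 4750 to 6930 (linear units). Their part in the results was not tested, and in such bulk samples fewer cells of a type and less RNA per cell cannot be told apart. All EDL and soleus cytoplasm arrays lay on 1 slide with TA cytoplasm 1, and all EDL and soleus nuclei arrays on another, so that fraction and slide cannot be told apart in these muscles. In TA the nuclei arrays shared slide 4 with TA cytoplasm 2. Replicates came from separate fiber pools. EDL and soleus pools of 1 number came from the same mice, and 2 of the 3 TA cytoplasm pools, replicates 1 and 2, had a mouse in common. TA cytoplasm 1 stood apart from the other 5 TA arrays at 2402 of 39373 probes, and its label is in doubt. At 2315 of these 2402 (96.4%) it lay nearer the median of the EDL and soleus arrays. That share cannot settle the label, since the probes were chosen for their distance from the other TA arrays. The remaining probes were not compared in this way. TA cytoplasm 1 was kept under its label, and its slide and its label cannot be told apart as a source of the distance. Without it 56 members were lower and 11 higher in nuclei in TA, against 31.4% and 21.1% of all probes. Over the 3 muscles 55 and 25 were, against 39.3% and 33.2%. The 3 arrays per group limit the precision of every value.

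The probes that carry the results are 60 bases long. The lines below show, 5′ to 3′, those of the Speer, olfactory receptor and Pisd pseudogenes with the largest changes, as the scanner files list them. Capitals mark the longest run of at least 30 bases shared with the probe of another gene, and a sequence without capitals holds none. On mm9, the build of the array design, Speer1-ps1 lay at chr5:11344905-11344964 and Speer8-ps1 at chr5:14978482-14978541, both on the plus strand. Probes A and B of Speer5-ps1 lay at chr10:43937984-43938043 and chr10:43937974-43938033 (plus). Olfr329-ps lay at chr11:58356573-58356632 (minus). Pisd-ps1 lay at chr11:3031786-3031845 (plus), Pisd-ps2 at chr17:3076357-3076416 (minus) and Pisd-ps3 at chr11:3030755-3030814 (plus).
Speer1-ps1: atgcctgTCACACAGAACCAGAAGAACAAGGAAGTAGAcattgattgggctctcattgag
Speer5-ps1 A: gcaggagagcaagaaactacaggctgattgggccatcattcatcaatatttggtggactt
Speer5-ps1 B: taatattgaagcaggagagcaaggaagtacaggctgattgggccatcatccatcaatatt
Speer8-ps1: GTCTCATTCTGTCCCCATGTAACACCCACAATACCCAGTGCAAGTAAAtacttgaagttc
Olfr329-ps: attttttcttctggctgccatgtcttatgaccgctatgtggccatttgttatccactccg
Pisd-ps1: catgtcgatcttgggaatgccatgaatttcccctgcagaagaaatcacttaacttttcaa
Pisd-ps2: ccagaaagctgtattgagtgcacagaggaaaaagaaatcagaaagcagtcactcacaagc
Pisd-ps3: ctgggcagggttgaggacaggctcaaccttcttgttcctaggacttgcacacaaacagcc

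Detection came first, since many of these loci gave little signal. Of the 173 probes, 66 were well above background on all 18 arrays (38.2%, against 45.6% of all probes) and 41 on none (23.7%, against 15.4%). In EDL, 115 members were well above background on at least 1 cytoplasm array (66.5%, against 72.6% of all probes) and 91 on at least 1 nuclei array (52.6%, against 69.5%). Soleus gave the same counts of members (all probes 71% and 70.2%), and TA gave 124 (71.7%, against 75.3%) and 83 (48%, against 66.7%). In all 3 cytoplasm groups and in no nuclei group, 22 members were detected (12.7%, against 3.67% of all probes). They came from 20 gene names: Speer1-ps1, Speer5-ps1, Speer6-ps1, Speer7-ps1, Olfr263-ps1, Olfr1077-ps1, Vmn1r190-ps, Vmn1r208-ps, Vmn2r68-ps, Vmn2r72-ps, Vmn2r-ps129, Art2a-ps, Ceacam-ps1, Slfn14-ps, Cypt2-ps, D12Ertd216e, Gm2022, Gm7609, Gm15299 and the major urinary protein pseudogene ENSMUST00000107492. The opposite pattern was found for 1 member, Gm6402 (0.578%, against 1.18%), which read 4.39, 4.77 and 4.57 on EDL nuclei, 5.08, 4.94 and 4.80 on soleus nuclei and 4.94, 5.12 and 5.00 on TA nuclei. Its lower bound for nuclei over cytoplasm was at least 1.57-fold in EDL, 1.78-fold in soleus and 3.38-fold in TA. Such a bound sets the mean of the detected group against the lowest signal that counted as well above background on each array, or the probe's own signal where that was higher. An array of the dim group without a value took the group's highest own value if that lay above this floor.

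Nuclei and cytoplasm were then compared over the 3 muscles with limma, as nuclei minus cytoplasm. Of the 104 members with enough values, 53 were called lower in nuclei (51.0%, against 38.9% of all probes) and 23 higher (22.1%, against 31.7%), and 28 were not called. The 104 members passed a filter that asks for values in every group, so they are not all members, and 69 could not be tested. In EDL, 40 of 109 members were lower (36.7%, against 27.0% of all probes) and 15 higher (13.8%, against 20.6%). In soleus, 46 of 112 were lower (41.1%, against 22.1%) and 16 higher (14.3%, against 19.1%). In TA, 59 of 114 were lower (51.8%, against 33.9%) and 9 higher (7.89%, against 19.5%). The soleus count of higher members was 9 without soleus cytoplasm replicate 3, against 14.7% of all probes. With the 2 fractions on slide 4 only, which leaves 1 cytoplasm array whose spread is taken from the other groups, 48 TA members were lower and 8 higher, beside 30.1% and 18.7% of all probes. Counting members whose fractions did not overlap in any muscle, 42 were lower in nuclei on every array (40.4%, against 20.6% of all probes) and 7 were higher on every array (6.73%, against 14.2%). Called in each of the 3 muscles separately were 35 members as lower (33.7%, against 17.9% of all probes) and 6 as higher (5.77%, against 10.9%).

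**Figure D1:**
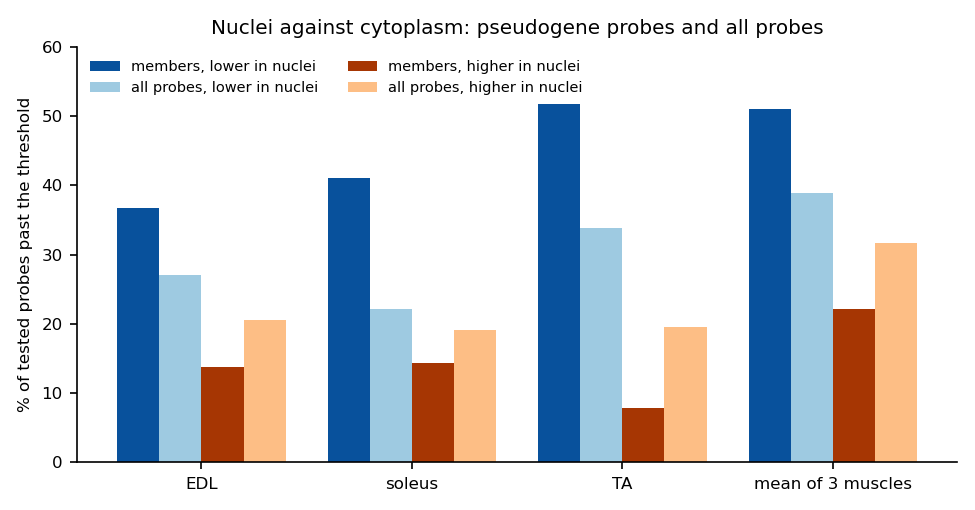
Share of tested probes called higher or lower in nuclei (adjusted p below 0.05), in percent, for the pseudogene probes and for all probes on the array, in each muscle and over the 3 muscles. In every comparison the pseudogene bar was taller for lower in nuclei, 51.0% against 38.9% over the 3 muscles, and shorter for higher.

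The split between higher and lower depended on how arrays were scaled, while the distance between the medians of the members and of all probes moved little between these scalings. The median difference of the tested members was -0.58 and that of all tested probes -0.08, a gap of -0.5. With arrays scaled to their 75th percentile, the medians were -0.84 and -0.3, a gap of -0.55. Then 62 of 104 members were lower and 12 higher, against 47.2% and 26.6% of all probes. With no scaling the medians were -0.13 and 0.42, again a gap of -0.55. Then 35 of 104 members were lower and 39 higher, against 21.6% and 50.4% of all probes. Other choices narrowed this distance. The medians of members and of all probes were -0.19 and -0.04 with normexp background correction, -0.22 and 0.02 where signals had to be well above background, -0.27 and 0.02 with no filter, -0.36 and -0.07 with values required on all arrays, and -0.10 and 0.05 in the authors' values. The direction of a small difference therefore holds only for the scaling it is given with. The members also differed by brightness. The tested probes of the array were put in 4 classes of equal size by their mean signal. In the brightest class, 10 of 35 members were lower (28.6%, against 34.1% of all probes of that class) and 14 higher (40%, against 36.3%). In the other classes the lower share of members was 51.7%, 65% and 75% from the dimmest up, against 37.6%, 43.2% and 40.7%. By current RefSeq type, 13 of 23 tested members now listed as protein coding were lower (median -0.71), as were 24 of 55 transcribed pseudogenes (median -0.24) and 7 of 11 pseudogenes (median -0.68). Higher in nuclei were 3, 15 and 3 of these.

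**Figure D2:**
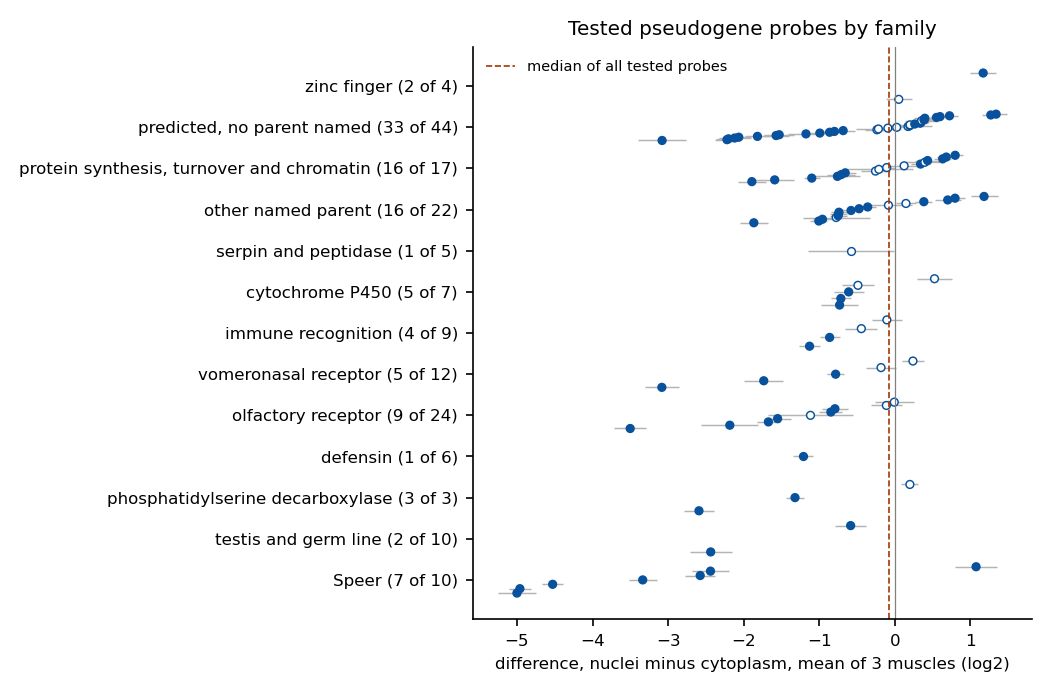
Difference of nuclei minus cytoplasm over the 3 muscles (log2) of each tested pseudogene probe, by family, with its standard error; filled points had an adjusted p below 0.05 and open points did not. The dashed line is the median of all tested probes, -0.08, and the labels give probes tested of probes in the family. Speer probes reached -5.00, and the members called higher in nuclei were mostly predicted pseudogenes and members of the protein synthesis, turnover and chromatin family.

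The largest differences belonged to the Speer family, whose name stands for spermatogenesis-associated glutamate-rich proteins, a testis family with many copies. Of 10 probes for 6 genes, 7 could be tested, 6 were lower in nuclei and 1, Speer9-ps1, was higher, with a median of -3.34. Probe A of Speer5-ps1 read 11.68, 11.64 and 11.80 on EDL cytoplasm and 6.36, 6.14 and 6.25 on EDL nuclei. Soleus gave 12.01, 11.05 and 11.70 in cytoplasm and 6.51, 6.27 and 6.48 in nuclei, and TA gave 12.24, 12.04 and 11.33 in cytoplasm and 7.51, 7.77 and 7.54 in nuclei. All 9 cytoplasm arrays lay above all 9 nuclei arrays, and all 18 were well above background. The difference was -4.96 ± 0.14 (SE), 31.2-fold, with an adjusted p of 4.4e-12. Probe B, which matches A at 47 of 50 overlapping bases, read 11.56 to 12.77 in cytoplasm and 7.29 to 8.42 in nuclei, a difference of -4.53 ± 0.14 (23.1-fold, adjusted p = 4.4e-12). A further probe of the gene was above background in cytoplasm only, at least 8.98-fold in EDL, 7.94-fold in soleus and 8.70-fold in TA.

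Speer1-ps1, now listed as the coding gene Speer1, read 8.89, 8.64 and 8.56 on EDL cytoplasm, 9.55, 8.21 and 8.82 on soleus cytoplasm and 9.52, 9.02 and 7.65 on TA cytoplasm. No nuclei array was well above background, so the cytoplasm was brighter by at least 33.6-fold in EDL, 36.1-fold in soleus and 21.6-fold in TA. Its fitted difference, -5.00 ± 0.25 (adjusted p = 7.03e-10), ranked 44 of 40541 probes from the lowest, and the Speer5-ps1 probes ranked 45 and 82. Speer8-ps1 was measured in both fractions, at 9.47, 9.34 and 9.29 on EDL cytoplasm and 5.44, 6.12 and 5.70 on EDL nuclei. Soleus gave 9.72, 8.22 and 9.42 against 5.96, 5.88 and 5.81, and TA 9.83, 9.07 and 8.94 against 5.91, 6.35 and 6.09. The fractions were apart in each muscle, by -3.34 ± 0.19 (10.1-fold, adjusted p = 9.41e-10). For Speer7-ps1, now Speer4cos, the cytoplasm was brighter by at least 4.09-, 3.59- and 4.56-fold in EDL, soleus and TA (fitted difference -2.58 ± 0.20, adjusted p = 1.4e-07). Speer6-ps1 gave at least 3.73-, 4.36- and 5.51-fold (fitted difference -2.44 ± 0.25, adjusted p = 6.77e-07).

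Speer9-ps1 went the other way. It read 5.37, 4.77 and 4.92 on EDL nuclei, while EDL cytoplasm gave 3.36 and 2.37, neither well above background, and 1 array without a value, at least 3.20-fold (adjusted p = 0.00338). In soleus and TA the fractions overlapped, with differences of 1.23 (adjusted p = 0.0667) and -0.15. Over the 3 muscles the difference was 1.08 ± 0.28 (adjusted p = 0.00353), and it was 0.56 (adjusted p = 0.0611) with arrays scaled to their 75th percentile. The 6 lower Speer probes kept their direction and their call under both other scalings. Beside them, 9 of 9 tested probes of Speer genes not described as pseudogenes were lower in nuclei, with a median of -2.48.

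**Figure D3:**
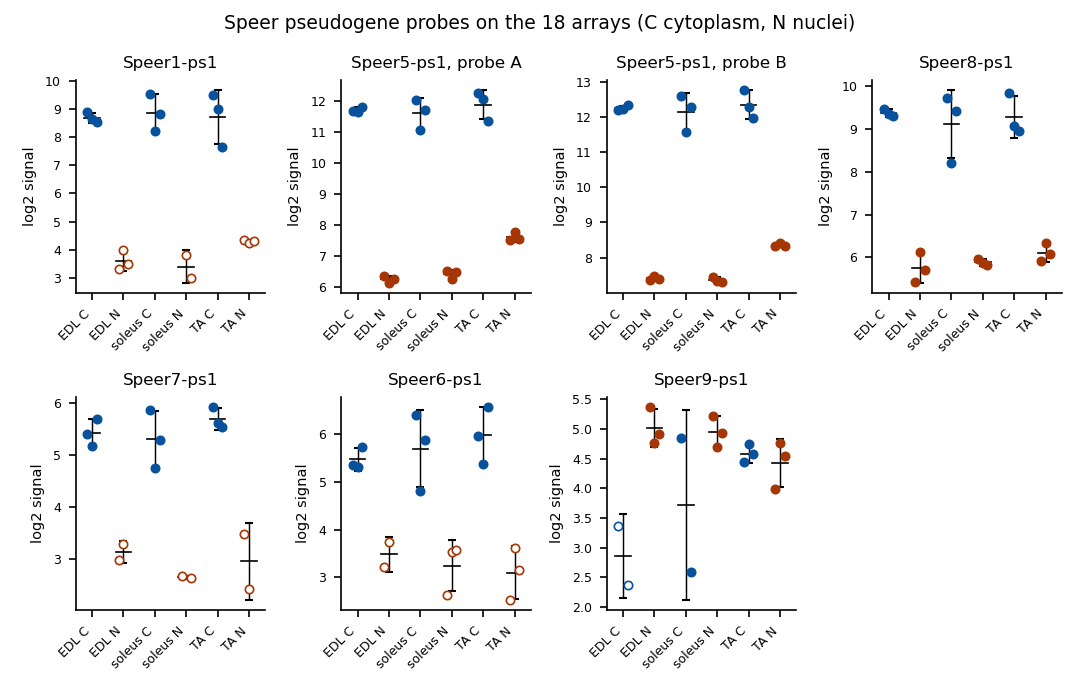
Log2 intensity of the 7 tested Speer pseudogene probes on the 18 arrays, with mean and SD (n = 3) per muscle and fraction; open symbols mark groups where no array was well above background. For Speer5-ps1 (A and B), Speer1-ps1, Speer8-ps1, Speer7-ps1 and Speer6-ps1 the cytoplasm lay above the nuclei in each muscle, while the Speer9-ps1 fractions lay apart in EDL alone, with nuclei higher.

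Receptors of the nose formed the largest named family. Olfactory receptors are odorant receptors of the sensory epithelium, each expressed by a small share of its neurons, and vomeronasal receptors detect pheromones. Of 24 olfactory receptor pseudogenes 9 could be tested, of which 6 were lower in nuclei and 0 higher (median -1.12). Olfr329-ps, now the coding gene Olfr329, read 8.21, 8.94 and 8.70 on EDL cytoplasm and 4.83, 5.08 and 4.70 on EDL nuclei. Soleus gave 9.47, 7.46 and 8.30 against 5.04, 4.95 and 4.73, and TA 8.77, 8.62 and 8.01 against 5.17 to 5.26. Every cytoplasm array was above every nuclei array, and the difference was -3.50 ± 0.21 (11.3-fold, adjusted p = 1.93e-09). Olfr1077-ps1 was above background in cytoplasm only, by at least 2.77-fold in EDL, 4.75-fold in soleus and 3.24-fold in TA (fitted difference -2.18 ± 0.38, adjusted p = 0.000148). The others called were Olfr1165-ps (-1.55), Olfr75-ps1 (-0.85), Olfr406-ps (-0.79) and ENSMUST00000097963 (-1.67). Olfr391-ps, ENSMUST00000059880 and ENSMUST00000069306 were not called, at -0.11, -1.12 and -0.01. Among olfactory receptor probes not described as pseudogenes, 369 of 454 tested were lower and 11 higher, with a median of -1.07.

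Of 12 vomeronasal probes 5 could be tested, and 3 were lower in nuclei. Vmn2r-ps129 read 6.41, 6.36 and 6.47 on EDL cytoplasm, 6.74, 6.12 and 6.27 on soleus cytoplasm and 7.01, 6.56 and 5.54 on TA cytoplasm. Nuclei arrays were not well above background, which gives at least 6.74-, 6.60- and 7.38-fold (fitted difference -3.08 ± 0.22, adjusted p = 3.88e-08). Vmn1r190-ps was brighter in cytoplasm by at least 3.73-, 2.17- and 2.11-fold (fitted difference -1.74 ± 0.26, adjusted p = 1.9e-05). The remaining 3 probes were all of Vmn2r-ps14, whose accession is now named Smarca5-ps, after a chromatin remodelling ATPase, so the receptor name no longer describes them. They differed by -0.78 ± 0.11 (adjusted p = 1.62e-05), -0.18 (adjusted p = 0.425) and 0.24 (adjusted p = 0.138). Vomeronasal probes not described as pseudogenes were lower in 81 of 91 cases and higher in 1, with a median of -1.5. Without scaling, Vmn2r-ps129 (-2.81) and Vmn1r190-ps (-1.55) stayed lower, and 2 probes of Vmn2r-ps14 were called higher (0.49 and 0.99). Among olfactory receptor pseudogenes 5 were then lower and 0 higher.

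The 3 pseudogenes of phosphatidylserine decarboxylase (Pisd), the mitochondrial enzyme that makes phosphatidylethanolamine, did not move together, although Pisd-ps1 and Pisd-ps3 are neighbours on chromosome 11. Pisd-ps2 read 8.17, 8.95 and 8.67 on EDL cytoplasm and 5.70, 5.91 and 5.54 on EDL nuclei. In soleus it read 9.23, 7.39 and 8.00 against 5.30, 5.55 and 5.37, and in TA 8.66, 8.22 and 8.03 against 6.21, 6.31 and 6.10. The fractions did not overlap, and the difference was -2.59 ± 0.20 (adjusted p = 1.99e-08). Pisd-ps3 read 7.59 to 8.82 in cytoplasm and 6.42 to 7.45 in nuclei, apart within each muscle, a difference of -1.32 ± 0.11 (adjusted p = 6.7e-08). Pisd-ps1 read 7.93 to 9.33 in cytoplasm and 8.49 to 8.86 in nuclei, with a difference of 0.20 ± 0.11 (adjusted p = 0.126) that became 0.96 (adjusted p = 4.32e-06) without scaling.

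Smaller named families were mostly lower in nuclei or too dim to test. Of 10 testis and germ line probes 2 were tested and both were lower. One of them, Rhox3g-ps (-0.58, adjusted p = 0.019), was well above background on no array. The other was Cypt2-ps, a copy of a gene for a protein of the sperm head. It was at least 4.37-fold brighter in cytoplasm in EDL, 2.57-fold in soleus and 3.11-fold in TA (fitted difference -2.44 ± 0.28, adjusted p = 3.1e-06). Of 6 defensin probes, copies of genes for antimicrobial peptides, 1 was tested. This was Defa-ps1, at 8.19, 8.39 and 8.46 on EDL cytoplasm and 7.35, 7.43 and 7.28 on EDL nuclei, and it differed by -1.22 ± 0.13 over the 3 muscles (adjusted p = 5.93e-07). Defensin probes not described as pseudogenes were lower in 32 of 36 cases, with a median of -1.08. Of 9 immune recognition probes 4 were tested and 2 were lower. Slfn10-ps, of the schlafen family of lymphocyte regulators, differed by -1.13 ± 0.14 (adjusted p = 2.48e-06). Of 7 cytochrome P450 probes, copies of genes for oxidases of fatty acids and drugs, 5 were tested and 3 were lower, with Cyp2j8-ps at -0.71 ± 0.13 (adjusted p = 0.000186) and Cyp2j11-ps at -0.73 ± 0.24 (adjusted p = 0.0135). The fractions of Cyp2j11-ps overlapped in each muscle, it was well above background on 7 of 18 arrays, and it was called in TA alone (adjusted p = 0.0342). Cyp4f41-ps was not called (0.53 ± 0.23, adjusted p = 0.051). No P450 member was lower without scaling, and 1 was then higher. Klk1b7-ps, a copy of a kallikrein peptidase gene and the only tested member among 5 serpin and peptidase probes, did not pass (-0.58 ± 0.57, adjusted p = 0.378).

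Pseudogenes of genes for protein synthesis, turnover and chromatin were bright and went both ways, with a median of -0.16. Of 16 tested, 6 were lower (37.5%, against 38.9% of all probes) and 5 higher (31.2%, against 31.7%), near the shares of the array. A pseudogene of Psme2, which encodes the beta subunit of the proteasome activator PA28, read 11.15, 11.45 and 11.39 on EDL cytoplasm and 8.95, 8.79 and 9.00 on EDL nuclei. Soleus gave 11.60, 9.81 and 10.67 against 8.91, 8.87 and 8.87, and TA 11.30, 11.55 and 10.71 against 9.66, 9.76 and 9.79. The fractions were apart in each muscle, by -1.89 ± 0.18 (adjusted p = 2.6e-07). LOC100042049, a copy of the ribosomal protein gene Rpl22l1, read 9.67, 9.67 and 9.92 on EDL cytoplasm and 10.42, 10.46 and 10.43 on EDL nuclei. It was higher in nuclei in each muscle, by 0.80 ± 0.11 (adjusted p = 8.34e-06), and by 0.86 and 1.58 under the other scalings. Tpt1p, a copy of the gene for translationally controlled tumor protein, was higher by 0.68 ± 0.12 (adjusted p = 0.000128), with fractions that did not overlap, and by 0.31 (adjusted p = 0.0537) with the 75th percentile.

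Among 22 probes with another named parent 16 were tested. Of these, 9 were lower (56.2%, against 38.9% of all probes) and 4 higher (25%, against 31.7%). LOC100316870, a copy of the gene for the ubiquitin ligase receptor Dcaf5, read 14.16 to 14.84 in cytoplasm and 13.59 to 14.07 in nuclei, a difference of -0.75 ± 0.11 (adjusted p = 2.01e-05). Rab42-ps, now the coding gene Rab42, a small GTPase, read 6.60, 6.80 and 6.73 on EDL cytoplasm and 5.03, 5.24 and 4.41 on EDL nuclei, and differed by -1.87 ± 0.19 over the muscles (adjusted p = 3.39e-07). Ppp4r1l-ps, of a phosphatase subunit, went the other way, by 1.18 ± 0.18 (adjusted p = 3.27e-05), with EDL nuclei brighter by at least 3.01-fold and soleus nuclei by at least 2.22-fold. Of 2 zinc finger members tested, Zfp692-ps, now the coding gene Zfp692, was higher by 1.17 ± 0.17 (adjusted p = 1.53e-05) and Znhit2-ps was not called (0.05 ± 0.18). Both Ppp4r1l-ps and Zfp692-ps had fractions that overlapped in TA.

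The largest group held 44 predicted pseudogenes with no parent named on the array, of which 33 were tested (median 0.02). Of these, 12 were higher (36.4%, against 31.7% of all probes) and 13 lower (39.4%, against 38.9%). With the 75th percentile 5 were higher and 15 lower (all probes 26.6% and 47.2%). Without scaling 19 were higher and 9 lower (all probes 50.4% and 21.6%). Gm7035, now named H2-K2 after the major histocompatibility class I gene family, had the largest difference toward nuclei among the members tested over the 3 muscles. It read 11.07, 10.67 and 10.43 on EDL cytoplasm and 11.92, 12.08 and 12.11 on EDL nuclei. Soleus gave 10.73, 11.06 and 10.56 against 11.82, 11.76 and 11.88, and TA 10.58, 10.17 and 11.28 against 12.36, 12.36 and 12.31. The fractions were apart in each muscle, by 1.34 ± 0.14 (adjusted p = 4.71e-07), and its other probe gave 1.27 ± 0.12 (adjusted p = 1.79e-07). Gm6222 (0.72 ± 0.11, adjusted p = 2e-05), Gm3219 (0.60 ± 0.12, adjusted p = 0.000415) and Gm15427 (0.55 ± 0.08, adjusted p = 2.46e-05) were also higher with no overlap in any muscle, and all stayed higher under both other scalings. A probe of Gm5069 was higher by 0.26 ± 0.10 (adjusted p = 0.0235) and ENSMUST00000109588 by 0.40 ± 0.14 (adjusted p = 0.0214). Both lay below 0 with the 75th percentile, at -0.22 and -0.06. The other probes of Gm5069 gave 0.35 (adjusted p = 0.0059) and -0.09 (adjusted p = 0.29). Gm2022 was above background in cytoplasm only, by at least 6.22-fold in EDL, 5.83-fold in soleus and 5.24-fold in TA (fitted difference -3.08 ± 0.31, adjusted p = 1.71e-06).

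Gm6981 and Gm5523 showed that probes of 1 pseudogene can disagree. Their sequences resemble glyceraldehyde-3-phosphate dehydrogenase (Gapdh), the glycolytic enzyme with many processed copies. The 5 probes of Gm6981 and probe a of Gm5523 are shown to let their sequences be set beside their values, with capitals as before. On mm9 the scanner files list Gm6981 probe a at chr9:51810166-51810194, a stretch of 29 bases, b at chr9:51810404-51810463, c at chr9:51810565-51810624 and d at chr9:51811164-51811223, all on the minus strand. Probe e is listed at chr9:51431855-51431914 on the plus strand. Gm5523 probe a is listed at chr1:13775879-13775938 (minus).
Gm6981 a: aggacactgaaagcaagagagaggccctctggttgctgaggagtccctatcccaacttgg
Gm6981 b: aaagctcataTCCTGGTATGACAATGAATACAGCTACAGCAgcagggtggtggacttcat
Gm6981 c: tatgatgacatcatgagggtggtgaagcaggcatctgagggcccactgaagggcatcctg
Gm6981 d: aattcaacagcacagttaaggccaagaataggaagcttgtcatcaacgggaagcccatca
Gm6981 e: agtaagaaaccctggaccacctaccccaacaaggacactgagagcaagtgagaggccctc
Gm5523 a: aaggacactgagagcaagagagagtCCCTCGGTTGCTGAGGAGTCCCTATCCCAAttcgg

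Gm6981 probe a read 10.25, 10.35 and 10.51 on EDL cytoplasm and 8.33, 8.29 and 8.34 on EDL nuclei. Soleus gave 10.56, 9.46 and 10.38 against 8.14, 8.24 and 8.34, and TA 11.07, 10.33 and 9.89 against 7.78, 7.74 and 7.79. It was lower in nuclei with no overlap, by -2.20 ± 0.16 (adjusted p = 1.24e-08). Probes b, c and e of the same gene were higher in nuclei, by 0.34 (adjusted p = 0.00647), 0.34 (adjusted p = 0.00197) and 0.39 (adjusted p = 0.00552), and d was not called (0.17, adjusted p = 0.0903). These 4 changed sign with the 75th percentile, to -0.05, -0.23, -0.11 and -0.21, while probe a stayed at -2.16. Probe a and the end of probe e match at 27 bases with 2 mismatches and no gap, and their differences lay 2.59 apart. Gm5523 probe a, which aligns to Gm6981 probe a with 56 matching and 2 mismatching bases, gave -2.07 ± 0.16 (adjusted p = 2.2e-08), and its probe b 0.36 ± 0.22 (adjusted p = 0.157). A probe of Gm7293, no member, matches Gm5523 probe a at 56 of 60 bases and gave -2.05 ± 0.16 (adjusted p = 1.98e-08). The 7 Gapdh probes of the array lay between 0.12 and 0.39, between -0.43 and 0.12 with the 75th percentile and between 0.29 and 0.84 without scaling. Of 11 genes with several tested probes, Gm6981, Gm5523 and Vmn2r-ps14 had differences at least 1 apart. Gm6981 was the one called in both directions, and the median spread was 0.44.

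Probes for different genes with near-identical sequences gave similar values. Of the 173 members, 30 matched another probe of the array over at least 40 bases at 90% identity or more. In 18 of them the closest such probe of another gene was also tested. The differences lay within 0.5 of each other in 13 and over 1 apart in 0, with a median distance of 0.12. These pairs are not independent, since several involve the Gapdh-like probes of Gm6981 and Gm5523. Distances between probes of unlike sequence are not given. Speer1-ps1 (-5.00) and 4933402N22Rik (-5.22) match at 55 of 59 bases. Speer8-ps1 (-3.34) and a lincRNA probe that overlaps it on chromosome 5 (-3.63) match at 59 of 60. LOC100042049 (0.80) and its parent Rpl22l1 (0.88) match at 57 of 58, and Gm16379 (0.20) and Mif (0.18), the gene of a cytokine, at 52 of 53. Nlrp1c-ps (-0.44) and Nlrp1a (-1.38), of an inflammasome sensor family, were 0.94 apart with 52 matching bases of 57. Defa-ps1 (-1.22) was near Defa-rs2 (-1.31, 46 of 50 bases), but not Defa25 (-0.15, 41 of 45 bases). How much of a member's signal came from such relatives was not tested. Members that share at least 30 bases with another gene's probe had a median of 0.11, with 6 of 14 lower and 5 higher, and the other members a median of -0.60, with 47 of 90 lower and 18 higher.

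**Figure D4:**
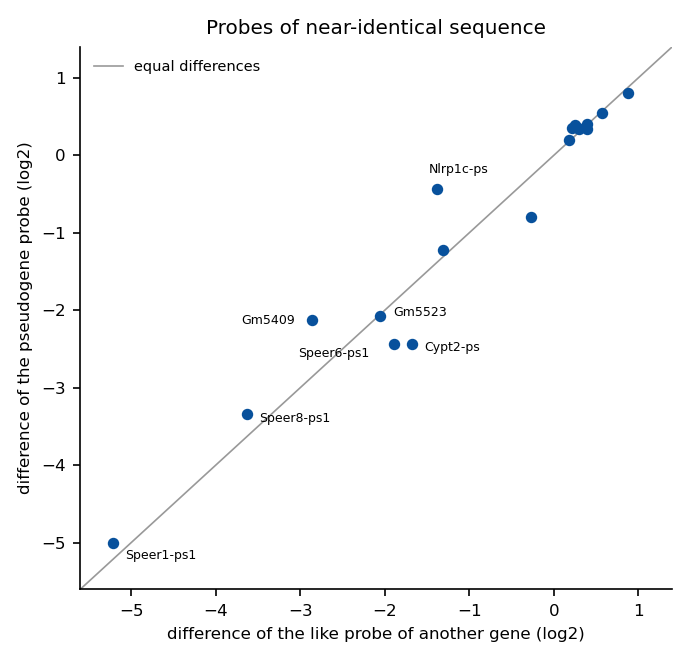
Difference of nuclei minus cytoplasm (log2) of 18 pseudogene probes (vertical axis) against that of the most alike probe of another gene (horizontal axis), with the line of equality. From Speer1-ps1 at -5.00 to LOC100042049 at 0.80 the points lay near the line, with Nlrp1c-ps, at -0.44 against -1.38, the farthest from it.

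Where the name gives the parent, pseudogene and parent were compared by the difference between their nuclei minus cytoplasm values. Each parent was represented by its brightest probe, and the further probes of Gpr137b, Pdxk and Hmga2 were not compared. An exact two-sided permutation test exchanged arrays between fractions within each muscle (8000 relabellings, smallest possible p = 0.00025, 9 pairs). It treats arrays as exchangeable, although EDL and soleus pools shared mice and their fractions lay on separate slides. Tyms-ps, a copy of the gene for thymidylate synthase, which makes the DNA precursor thymidylate, read 5.26, 4.80 and 4.91 on EDL cytoplasm and 5.75, 5.77 and 5.77 on EDL nuclei. Tyms itself read 7.84, 8.64 and 8.29 against 6.44, 6.52 and 6.59. The copy was higher in nuclei over the muscles (0.70 ± 0.17, adjusted p = 0.00172) and the parent lower (-1.44 ± 0.19, adjusted p = 6.17e-06), 2.14 apart (permutation test, adjusted p = 0.00045). The fractions of Tyms-ps overlapped in soleus and in TA, while those of Tyms were apart in each muscle. In TA the difference of Tyms-ps was 0.51 (limma adjusted p = 0.157). Npm3-ps1 read 5.84, 5.75 and 6.21 on EDL cytoplasm and 5.62, 5.43 and 4.99 on EDL nuclei, and its parent Npm3, the gene of a histone chaperone, 4.86, 4.07 and 4.64 against 5.95, 5.97 and 5.89. Here the copy was lower (-0.66 ± 0.14, adjusted p = 0.000538) and the parent higher (1.20 ± 0.20, adjusted p = 6.25e-05), with a pair difference of -1.86 (permutation test, adjusted p = 0.00045). All 4 genes kept these signs under both other scalings, but Npm3-ps1 was not called without scaling (-0.25, limma adjusted p = 0.234).

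For Gpr137b, the gene of a lysosomal membrane protein, the parent was higher in nuclei (1.42 ± 0.22, adjusted p = 2.69e-05), while the probes of Gpr137b-ps gave -0.47 ± 0.09 (adjusted p = 0.000162) and 0.15 ± 0.13 (adjusted p = 0.319). The pairs differed by -1.89 (permutation test, adjusted p = 0.00045) and -1.27 (adjusted p = 0.00075), although the -0.47 became 0.30 without scaling and the 0.15 became -0.12 with the 75th percentile. Tubb2a, of beta tubulin, and Tubb2a-ps2 were both higher, by 1.30 ± 0.20 and 0.63 ± 0.11, and differed by -0.66 (permutation test, adjusted p = 0.00257). Against Pisd itself (-0.36 ± 0.17, adjusted p = 0.0739), Pisd-ps2 lay at -2.24, Pisd-ps3 at -0.97 and Pisd-ps1 at 0.55 (permutation test, adjusted p = 0.00045, 0.00045 and 0.0475). Pdxk-ps (-0.36 ± 0.11) and Pdxk (-0.46 ± 0.11), of pyridoxal kinase, differed by 0.10 (permutation test, p = 0.521), and both were above 0 without scaling. Hmga2-ps1, a copy of a chromatin protein gene, was lower in nuclei (-1.59 ± 0.26, adjusted p = 6.09e-05) and Hmga2 at 0.49 ± 0.21 (adjusted p = 0.0467), but the pair was not tested because of missing values. The members named after Defb48, Fut4, Mageb16 and Sycp1 had too few values for a comparison.

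**Figure D5:**
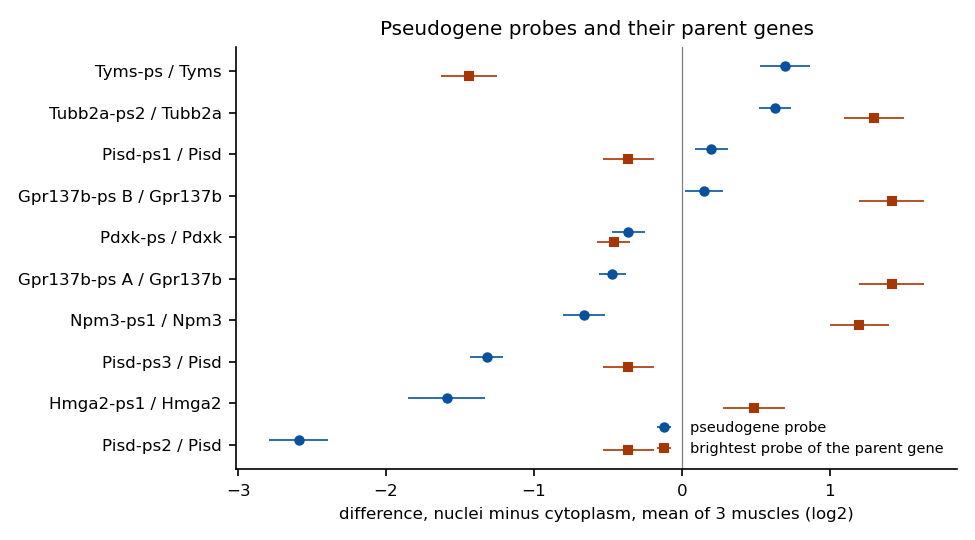
Nuclei minus cytoplasm over the 3 muscles (log2), mean and standard error, for 10 pairs of a pseudogene probe and the brightest probe of its parent gene. Tyms-ps lay above 0 and Tyms below, Npm3-ps1 below 0 and Npm3 above, and the Pisd-ps2 and Pisd-ps3 probes below Pisd.

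Differences between muscles were few. The limma interaction of muscle and fraction was called for 0 of 104 members (2.17% of all probes), with an unadjusted p under 0.05 for 13 (12.5%, against 17.9% of all probes). It was called for 4 members without TA cytoplasm replicate 3, for 2 without TA cytoplasm replicate 1, for 1 without EDL cytoplasm replicate 3 or soleus cytoplasm replicate 2, and for 33 without scaling. Pdxk-ps and Cdk3-ps were among the members with the smallest p-values. Pdxk-ps differed by -0.31, 0.16 and -0.93 in EDL, soleus and TA (adjusted p of the interaction = 0.0887), with the TA difference called (adjusted p = 0.000923). Cdk3-ps, of a cyclin-dependent kinase, was higher in nuclei in EDL and soleus, by 1.17 (adjusted p = 0.000932) and 1.15 (adjusted p = 0.0014), and at 0.07 in TA (adjusted p of the interaction = 0.109). Soleus and EDL were then compared within a fraction. In nuclei limma called 0 of 109 members, against 1.09% of all probes higher and 0.642% lower in soleus, with an unadjusted p under 0.05 for 15 (13.8%, against 9.9% of all probes). With the replicate block 1 was called, and without TA cytoplasm replicate 1, which enters through the shared normalization and spread, 7 (1 without TA cytoplasm replicate 3). In cytoplasm 0 of 128 members were called, against 0.919% of all probes higher and 0.640% lower. An unadjusted p under 0.05 was found for 12 (9.38%, against 14.8% of all probes). Without soleus cytoplasm replicate 1 or TA cytoplasm replicate 1, 1 was called. The soleus against EDL counts under these other settings also have no share of all probes beside them.

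A single array also stood apart at several members. Of 39373 probes with a value on all 6 TA arrays, 2033 (5.16%) were lower on TA cytoplasm 1 than on the other 5 arrays by at least 1, with those 5 within 1 of each other, and 369 (0.937%) were higher. Among 100 members 5 were lower and 1 higher in this way. Gm5523 probe b read 12.95 on TA cytoplasm 1 and 14.85 to 15.15 on the others, while EDL and soleus gave 12.33 to 13.36. The ribosomal protein L32 pseudogene ENSMUST00000091052 read 10.91 against 13.13 to 13.54, and Gm16379 10.61 against 13.12 to 13.50. ENSMUST00000109588, whose probe matches a Gapdh probe at 51 of 56 bases, read 13.50 against 14.60 to 14.97, and Zfp692-ps 6.36 against 7.40 to 7.73. The opposite was seen at 1 probe of Vmn2r-ps14, 8.15 against 6.31 to 7.03. Whether the slide or the label of this array set these values cannot be told apart.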

How the data were processed

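RNA of 18 samples was measured on single-colour arrays. The labels gave each sample's group and replicate number. The authors deposited scanner files whose processed intensity, made by Agilent Feature Extraction 10.7.3.1, is corrected for background within each array and not scaled between arrays, beside flags that hold other information (0 or 1). The deposited table of log2 values, quantile-normalized by the authors and holding part of the probes, served as an alternative.

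Spots flagged as outliers (0.263% to 0.568% of an array) or without a positive, significant signal became missing, and 3671 control spots were dropped. Processed signals were converted to log2, quantile-normalized across arrays and averaged per probe. limma 3.58.1 (R 4.3.3) estimated 6 group means on all probes, with 12 residual degrees of freedom and an eBayes prior of 3.64. Benjamini-Hochberg adjustment covered every probe tested in a comparison (two-sided, threshold 0.05). Testing required values on at least 2 of 3 arrays per group. Other software was matplotlib 3.10.9, pandas 2.3.3 and numpy 2.4.6 under Python 3.11.15. The fit was tested on simulated data. RefSeq (GRCm38.p6) gave current names only: 124 probes matched by accession, 22 by symbol and 6 by synonym.

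Members, families and lists were chosen with earlier results of these data known. Named by rule were the 8 members with the largest change in each direction that were called, did not overlap in any muscle and were well above background on at least 1 array of each group (7 qualified as higher), the brightest and most changed of each family of at least 3 probes, members with a parent on the array, the 3 smallest interaction p-values and the 5 brightest. Others were named after their values were seen, and 1 member that the rule named is not reported here. According to the labels, same-numbered EDL and soleus samples came from the same mice, and TA samples in part. Correlations of same-numbered deviations over 35528 probes lay between -0.11 and 0.1.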

Additional observations from a re-analysis of the deposited data

How the results depend on the processing

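Counts of members called depended on the scaling, the filters and the samples used. Shares of all probes follow in brackets. None are given for interactions and soleus against EDL calls, so those counts cannot be read as particular to the members. Over the 3 muscles 23 were higher and 53 lower (31.7% and 38.9%). The 75th percentile gave 12 and 62 (26.6% and 47.2%), and no scaling 39 and 35 (50.4% and 21.6%). No scaling also gave 26 higher and 25 lower in EDL (36.1% and 16%), and 45 and 20 in soleus (58% and 4.9%). It gave 33 interactions and 2 soleus against EDL calls in nuclei. The 75th percentile gave 9 higher in soleus (15.1%), 1 interaction and 1 soleus against EDL call in nuclei. Normexp gave 14 higher in TA (18.9%), and 7 soleus against EDL calls in nuclei and 2 in cytoplasm. Requiring spots well above background left 26 lower in EDL (23.9%), 22 in soleus (15.3%) and 37 in TA (34.3%), with 1 interaction. No filter gave 26 higher in EDL (20.4%), 17 in TA (21.3%), 2 interactions and 2 soleus against EDL calls in nuclei. With the nuclear arrays of a muscle averaged to 1 sample, 10 were higher over the muscles (16.1%). In EDL 0 were then higher and 15 lower (2.32% and 6.01%), in soleus 0 and 14 (1.32% and 2.63%), in TA 2 and 24 (2.92% and 8.95%). The authors' values, with 64 members among 3668 probes, gave 9 and 26 over the muscles (29% and 26.9%). They gave 4 and 16 in EDL (16.5% and 18.5%), 6 and 17 in soleus (16.1% and 16.2%) and 3 and 24 in TA (19.1% and 21.2%). They also gave 1 interaction and 2 soleus against EDL calls in nuclei. Significance Analysis of Microarrays gave 10 higher in soleus (19.9%), and 3 higher and 33 lower in TA (4.81% and 19.8%). The replicate block gave 24 and 54 over the muscles (31.8% and 38.6%) and 1 soleus against EDL call in nuclei. It changed no other count by over 1.5 times. Apart from the construction of these alternatives, the cause was not tested.

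Leaving out 1 array at a time gave 11 to 22 higher and 32 to 44 lower in EDL, 9 to 16 and 33 to 51 in soleus, 7 to 13 and 45 to 61 in TA, and 20 to 25 and 46 to 55 over the muscles. Of all probes, 30.4% to 33.2% were then higher and 37.1% to 40.9% lower over the muscles. In EDL 16.5% to 24.8% of all probes were higher and 23.1% to 28.8% lower. Soleus gave 14.7% to 23.3% and 17.4% to 27.8%, and TA 16.9% to 21.1% and 29% to 37.7%. Leaving out 1 array gave 0 to 4 interactions, and 0 to 7 soleus against EDL calls in nuclei and 0 to 1 in cytoplasm. Over all alternatives, 1106 values of named members kept their direction and side of the threshold, 20 lost the call, 18 gained it and 10 changed sign. With the 75th percentile the sign changed for Cyp4f41-ps (-0.05), Gpr137b-ps (-0.12), ENSMUST00000109588 (-0.06), Gm5069 (-0.22) and Gm6981 (-0.23 and -0.11). Without scaling it changed for Gpr137b-ps (0.30) and Pdxk-ps (0.19), and with the authors' values for Pdxk-ps (0.01). Znhit2-ps gave -0.11 without TA cytoplasm replicate 1, and up to 0.16 when another array was left out. Depth also limits these results, since 41 members were well above background on no array.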
